A study of Mus musculus with 21 samples.

Results

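The core circadian clock loop was followed in the left ventricle as 10 genes, chosen by symbol: the activators Arntl, Clock and Npas2, the repressors Per1, Per2, Per3, Cry1 and Cry2, and the nuclear receptors Nr1d1 and Nr1d2. They are 10 of the 55450 genes of the count table, and all 10 were among the 17309 genes with enough counts to be tested.

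The proteins of Arntl and Clock, or of Arntl and the Clock relative Npas2, bind DNA as pairs at E-boxes and switch on the Per, Cry and Nr1d genes. The Per and Cry proteins then hold these pairs in check, and the Nr1d receptors (also called REV-ERBs) repress Arntl and Npas2 through ROR response elements, so that activators and repressors peak at opposite times of day. In the heart this loop runs in the cardiomyocytes themselves and is known for daily rhythms in genes of fuel use and contraction.

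RNA was sequenced from frozen left ventricles of 21 male 129S6/SvEv mice, each of which gave 1 sample. Mice were wild-type (WT) or carried the R403Q mutation of cardiac myosin heavy chain, given in the labels as Myh6+/R404Q (1 mutant copy), a model of hypertrophic cardiomyopathy with WT littermates as controls. They ate a control diet (CD) or this diet with empagliflozin (EMPA), an inhibitor of the sodium-glucose cotransporter of the kidney, at 0.15 mg/g, about 15 mg/kg body weight. The groups were WT-CD (n = 5), R403Q-CD (n = 7), WT-EMPA (n = 5) and R403Q-EMPA (n = 4). Feeding began at 9 to 10 weeks of age, and the methods of the study place RNA sequencing after 2 weeks, at 12 weeks of age, whereas the labels give 16 weeks of feeding. The mice came from 7 cages. Cages 68657, 68660, 68664 and 68666 held 12 mice on CD, cages 68691, 68692 and 68695 held 9 mice on EMPA, and no cage held both diets, so cage and diet cannot be told apart. The time of day at which hearts were collected is not given in the sources used here.

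Totals ran from 23491535 to 43539684 counts per mouse, and 3 counts, taken as the lowest level these totals can show, correspond to 0.0689 to 0.128 CPM (counts scaled to a total of 1000000). This floor covers counting error only. The lowest clock gene reading, 39 counts of Arntl in R403Q-CD mouse 7, lay above it. All 8 ventricular cardiomyocyte markers were present in every mouse, with summed levels between 59730 and 105100 CPM, while the atrial markers summed to at most 748.5 CPM in WT hearts and to as much as 11600 CPM in R403Q-CD hearts. Nppa, which ventricles under load also express, made up most of this sum (238.2 to 11000 CPM over the 21 mice), while Myl7, Sln and Myl4 reached at most 180.4, 88.4 and 339.2 CPM. In bulk tissue, fewer cells of a type and less RNA per cell cannot be told apart.

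In the stretch of 250 bases upstream of the annotated start, 6 of the genes held letters that match the clock motifs searched. RefSeq start sites were found for 9 of the 10 symbols (Per2 was not among them), on build GRCm38.p6. Sequences run 5′ to 3′ on the strand of the gene, with motif matches in capitals. The motifs searched, on both strands, were the E-box CACGTG, the E-prime-box CACGTT, the D-box TTANGTAA, the ROR response element (RORE) TNGGTCA and the cAMP response element TGACGTCA, and no matches of different motifs overlapped. The Arntl stretch (chr7:113207215-113207464, + strand) holds a pair of matches to the RORE letters, TTGGTCA and TCGGTCA. These letters leave their second base open, so a match to them need not be a RORE. The Per1 stretch (chr11:69098699-69098948, + strand), which lies inside the annotated span of the gene, holds an E-box. Per3 (chr4:151044666-151044915, − strand) holds a pair of D-boxes and a match to the RORE letters. The Cry1 stretch (chr10:85185055-85185304, − strand) holds an E-box and an E-prime-box, and Nr1d1 (chr11:98775378-98775627, − strand) an E-prime-box. The Cry2 stretch (chr2:92434070-92434319, − strand) holds an E-prime-box and a match to the RORE letters.
Arntl: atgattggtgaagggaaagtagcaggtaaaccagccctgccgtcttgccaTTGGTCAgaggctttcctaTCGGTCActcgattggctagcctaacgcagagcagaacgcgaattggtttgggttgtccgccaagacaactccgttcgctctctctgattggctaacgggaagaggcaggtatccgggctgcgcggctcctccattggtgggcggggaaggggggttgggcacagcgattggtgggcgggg
Per1: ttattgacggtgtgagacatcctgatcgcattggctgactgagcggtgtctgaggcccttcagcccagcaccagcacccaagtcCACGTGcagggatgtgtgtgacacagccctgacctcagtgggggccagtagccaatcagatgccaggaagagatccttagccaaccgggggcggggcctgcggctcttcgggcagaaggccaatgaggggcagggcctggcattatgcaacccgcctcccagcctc
Per3: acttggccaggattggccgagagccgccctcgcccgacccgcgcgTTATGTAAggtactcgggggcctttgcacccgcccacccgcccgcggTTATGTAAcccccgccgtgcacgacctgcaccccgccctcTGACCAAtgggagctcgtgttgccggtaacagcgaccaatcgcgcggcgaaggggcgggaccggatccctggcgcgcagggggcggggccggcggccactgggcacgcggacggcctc
Cry1: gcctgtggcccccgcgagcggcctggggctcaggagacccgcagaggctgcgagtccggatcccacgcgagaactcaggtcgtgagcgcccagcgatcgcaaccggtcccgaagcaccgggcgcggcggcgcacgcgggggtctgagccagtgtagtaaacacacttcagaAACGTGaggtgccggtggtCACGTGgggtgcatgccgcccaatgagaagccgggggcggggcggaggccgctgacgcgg
Cry2: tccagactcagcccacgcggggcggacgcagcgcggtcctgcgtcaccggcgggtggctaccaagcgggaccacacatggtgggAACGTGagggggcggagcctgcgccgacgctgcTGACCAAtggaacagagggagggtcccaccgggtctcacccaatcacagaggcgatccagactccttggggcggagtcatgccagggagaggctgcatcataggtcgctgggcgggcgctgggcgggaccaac
Nr1d1: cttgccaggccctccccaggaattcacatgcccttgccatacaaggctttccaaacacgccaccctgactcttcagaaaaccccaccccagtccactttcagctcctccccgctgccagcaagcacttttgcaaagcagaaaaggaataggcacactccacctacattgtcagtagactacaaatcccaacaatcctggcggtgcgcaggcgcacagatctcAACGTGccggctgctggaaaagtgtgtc
In the full windows, which run to 50 bases past the start, a further annotated start of Arntl added a match to the RORE letters. This match, TAGGTCA, lies at bases 30 to 36 past that start. The window of a further annotated start of Per1 held none of the 5 motifs. None of the 5 motifs was found for Npas2, Clock or Nr1d2, and no member had the cAMP response element. Of all 32851 promoter windows in the RefSeq table, 7.15% held an E-box, 4.68% an E-prime-box, 2.32% a D-box, 10.96% the RORE letters and 1.79% a cAMP response element. A match describes the letters of the window and is not a measured binding site.

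Levels of the 10 genes differed widely within the loop. Per kb of exon, WT-CD hearts held most Nr1d2, at 40.9 ± 4.14 CPM per kb (SD, n = 5), followed by Per1 at 20.3 ± 1.17, Nr1d1 at 14.9 ± 4.29 and Cry2 at 10.7 ± 0.229 CPM per kb. Then came Per2 (8.53 ± 0.919), Per3 (7.12 ± 1.04), Cry1 (5.56 ± 0.392), Clock (3.93 ± 0.53), Npas2 (1.18 ± 0.272) and last Arntl (0.311 ± 0.154 CPM per kb; SD, n = 5 each). The intervals of mean ± SD overlapped for Per1 and Nr1d1, for Nr1d1 and Cry2 and for Per2 and Per3, so the order within these neighbours is inside the spread of the mice, and they did not overlap for the other neighbours. Arntl, the lowest member, was also the one that varied most between mice of a group. Its within-group SD of log2 CPM was 0.99, higher than that of 98.9% of all tested genes and of 99.2% of the 1389 genes of like level. Across the 21 mice it ranged 13.5-fold, while Cry1 ranged 1.53-fold and Cry2 1.47-fold.

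**Figure D1:**
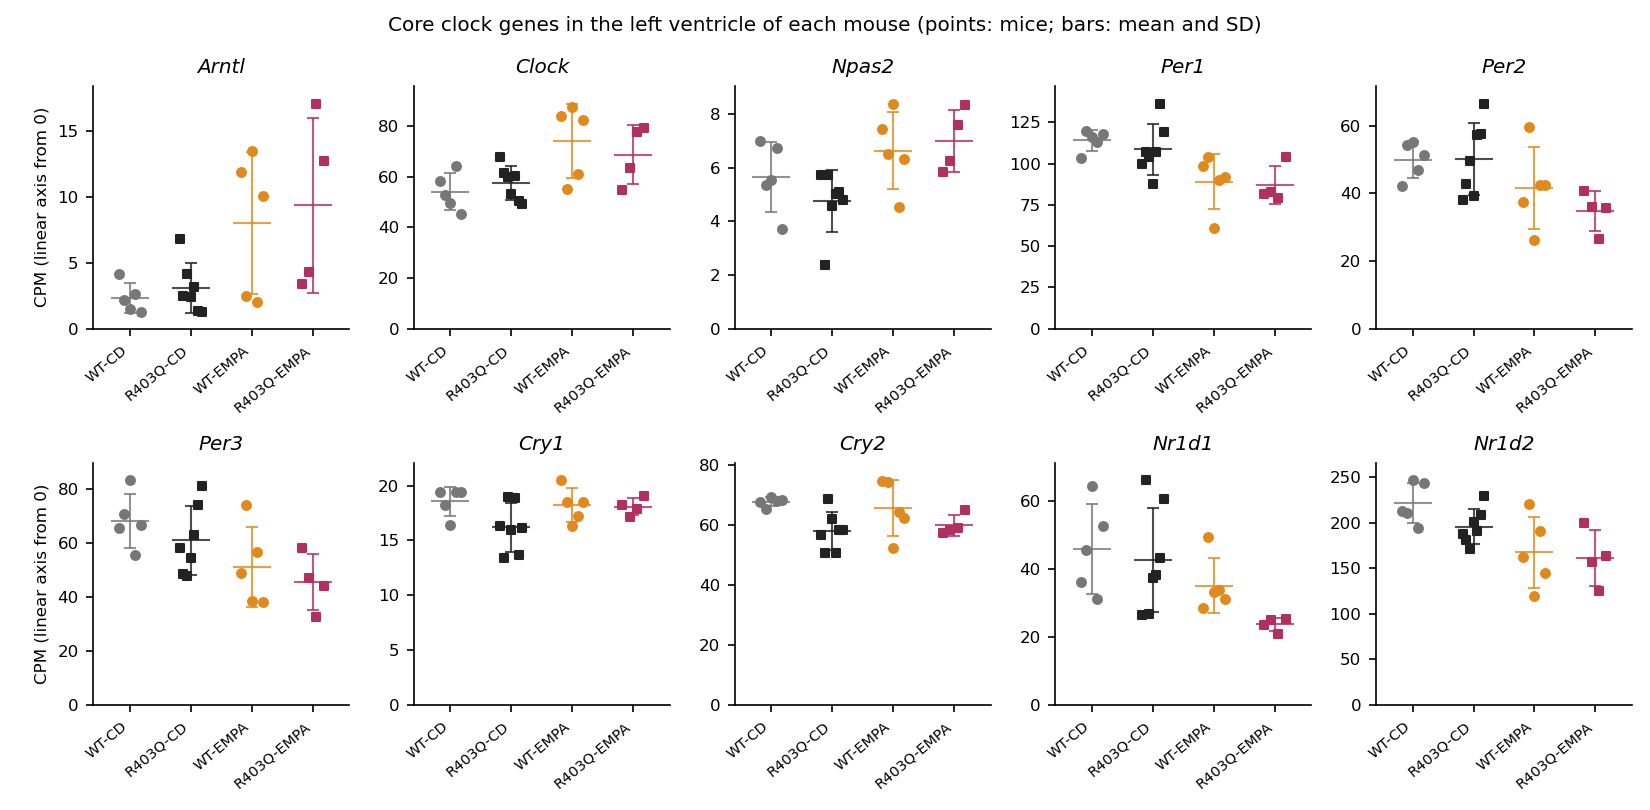
Level of each core clock gene (CPM, linear axes from 0) in every mouse of the 4 groups, with the mean and SD of each group as bars. Arntl ran from 1.27 CPM to 17.1 CPM with both high and low mice in each EMPA group. Cry1 and Cry2 had the smallest ratios of highest to lowest mouse (1.53-fold and 1.47-fold).

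EMPA diet was compared with the control diet over both genotypes, as the mean of the difference in WT and in R403Q hearts. With mice treated as independent, the activators Arntl and Clock rose on EMPA, and the repressor Per1 and the receptor Nr1d1 fell. These 4 of the 10 genes had an adjusted p under 0.05 in edgeR's quasi-likelihood test, against 2.91% of all genes tested (504 of 17309), with 2 higher, against 1.98% of all genes, and 2 lower, against 0.936%. With cage as a random effect, 0 of the 10 passed (adjusted p = 0.129 for Arntl, 0.113 for Clock, 0.0964 for Per1 and 0.129 for Nr1d1, limma). That fit gave every gene the same correlation of mice in a cage, 0.103, estimated over all genes. In edgeR at an unadjusted p under 0.05 there were 8 of 10, 3 of them higher (Arntl, Clock and Npas2) and 5 lower (Per1, Per2, Per3, Nr1d1 and Nr1d2), against 20.1% of all genes (10.7% higher and 9.41% lower). No member separated the 9 EMPA mice from the 12 CD mice without overlap, as 0.0693% of all genes did. Markers of red cells moved with the diet: 4 of 5 rose on EMPA, and their summed level was 706.2 to 1717 CPM in CD and 1214 to 2660 CPM in EMPA hearts. Of the 5 endothelial markers 1 rose, and no other marker list held a call in edgeR, with a median log2 difference of −2.31 for 4 atrial and −0.79 for 4 smooth muscle markers. Their part in the differences of the clock genes was not tested.

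Among the activators, Arntl encodes BMAL1, the partner that both Clock and Npas2 need. WT-CD mice 1 to 5 had 4.17, 2.15, 1.48, 2.63 and 1.27 CPM of Arntl, and the 7 R403Q-CD mice ran from 1.27 over a median of 2.46 to 6.81 CPM. WT-EMPA mice 1 to 5 had 11.9, 2.49, 13.5, 1.99 and 10.05 CPM, and R403Q-EMPA mice 1 to 4 had 3.35, 4.32, 17.1 and 12.8 CPM. In each EMPA group some mice lay far above every CD mouse and others among them: 5 of the 9 EMPA mice exceeded the highest CD mouse and 4 did not. The mean was 2.78 ± 1.63 CPM on CD (SD, n = 12) and 8.61 ± 5.63 CPM on EMPA (SD, n = 9). The fitted difference, averaged over the genotypes, was 1.70 on the log2 scale (SE 0.39, adjusted p = 0.0244, edgeR), or 3.24-fold.

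Clock encodes the partner of BMAL1 and had the same mice at the top. WT-CD mice had 58.2, 52.7, 49.7, 64.0 and 45.4 CPM, and R403Q-CD mice ran from 49.3 over a median of 59.9 to 67.7 CPM. WT-EMPA mice had 83.9, 55.3, 87.5, 61.2 and 82.2 CPM, and R403Q-EMPA mice 54.8, 63.3, 77.8 and 79.0 CPM. The 5 EMPA mice above the CD range were the 5 with high Arntl. Clock was 56.0 ± 6.84 CPM on CD (SD, n = 12) and 71.6 ± 12.9 CPM on EMPA (SD, n = 9), higher by 0.36 on the log2 scale (SE 0.09, adjusted p = 0.0411, edgeR). Npas2, which can stand in for Clock, ran from 2.36 to 6.99 CPM on CD and from 4.52 to 8.37 CPM on EMPA, with 4 EMPA mice above the CD range. Its log2 difference of 0.40 (SE 0.14) had an adjusted p of 0.128 (edgeR).

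Among the repressors, Per1 (Period 1), an early-responding Period gene, had the smallest p. WT-CD mice had 103.2, 120.1, 116.1, 113.2 and 117.9 CPM, and R403Q-CD mice ran from 87.6 over a median of 106.9 to 136.2 CPM. WT-EMPA mice had 98.6, 103.8, 61.0, 90.1 and 91.9 CPM, and R403Q-EMPA mice 81.9, 82.6, 79.3 and 103.9 CPM. All 9 EMPA mice lay below the CD mean of 111.0 ± 12.4 CPM (SD, n = 12), and 4 lay below the lowest CD mouse. With 88.1 ± 13.7 CPM on EMPA (SD, n = 9), Per1 changed by −0.34 on the log2 scale (SE 0.09, adjusted p = 0.0354, edgeR).

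Per2 and Per3, the other Period repressors, differed by a like amount without passing the test. Per2 was 50.0 ± 8.55 CPM on CD (SD, n = 12) and 38.5 ± 9.94 CPM on EMPA (SD, n = 9; log2 difference −0.40, SE 0.12, adjusted p = 0.081, edgeR). Per3 was 64.1 ± 11.8 CPM on CD and 48.7 ± 12.8 CPM on EMPA (SD, n = 12 and 9; log2 difference −0.42, SE 0.13, adjusted p = 0.0773, edgeR). For each of them 5 of 9 EMPA mice lay below the CD range. The cryptochromes, which bind the Period proteins and block the activator pair directly, showed next to no difference. Cry1 was 17.2 ± 2.19 CPM on CD and 18.1 ± 1.20 CPM on EMPA (SD, n = 12 and 9), with a log2 difference of 0.07 (SE 0.06). Cry2 was 61.9 ± 6.91 CPM on CD and 62.9 ± 7.49 CPM on EMPA (SD, n = 12 and 9), with a log2 difference of 0.00 (SE 0.06). Their standard errors were the smallest of the 10 genes.

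Nr1d1 and Nr1d2 encode REV-ERBα and REV-ERBβ. Nr1d1 was 36.1, 45.4, 64.3, 31.2 and 52.7 CPM in WT-CD mice, and ran from 26.5 over a median of 38.3 to 66.0 CPM in R403Q-CD mice. It was 28.4, 49.2, 33.2, 33.7 and 31.0 CPM in WT-EMPA mice, and 23.6, 24.9, 20.8 and 25.4 CPM in R403Q-EMPA mice. The 4 R403Q-EMPA mice were the only ones below the whole CD range. The mean was 44.0 ± 14.0 CPM on CD (SD, n = 12) and 30.0 ± 8.44 CPM on EMPA (SD, n = 9), a change of −0.62 on the log2 scale (SE 0.16, adjusted p = 0.0436, edgeR). Nr1d1 shares 263 exon bases with Thra, the thyroid hormone receptor α gene on the opposite strand. The authors counted with a strand setting, and Thra had a log2 difference of 0.11 (SE 0.04, adjusted p = 0.173, edgeR), opposite in sign to Nr1d1. Nr1d2 was 206.2 ± 23.7 CPM on CD and 164.7 ± 33.6 CPM on EMPA (SD, n = 12 and 9), with 6 EMPA mice below the CD range. Its log2 difference of −0.34 (SE 0.10) had an adjusted p of 0.0542 (edgeR).

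The 4 calls depended on how cages and single mice were treated. With cage as a random effect 0 of the 10 passed, and 113 of all genes did (0.653%). Unadjusted, 8 of the 10 had a p under 0.05 in that fit, as had 2655 of all 17309 genes (limma). DESeq2 called 7 of the 10 and 983 of all genes (5.88%). Leaving out 1 mouse gave between 0 and 7 members and between 122 and 929 of all genes, with 0 members without WT-CD mouse 5 or R403Q-EMPA mouse 3 and 7 without WT-EMPA mouse 2. The call of Arntl ended in 3 of 21 such fits, without WT-CD mouse 5 (adjusted p = 0.0549), R403Q-EMPA mouse 3 (0.0846) and R403Q-EMPA mouse 4 (0.0604, all edgeR). That of Per1 ended in 8 fits, that of Clock in 13 and that of Nr1d1 in 15, with the highest adjusted p, 0.0947, 0.116 and 0.105, without R403Q-EMPA mouse 3 in each case. None of these 4 genes changed sign in the 21 fits, and the log2 fold change of Arntl stayed between 1.46 and 1.86.

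**Figure D2:**
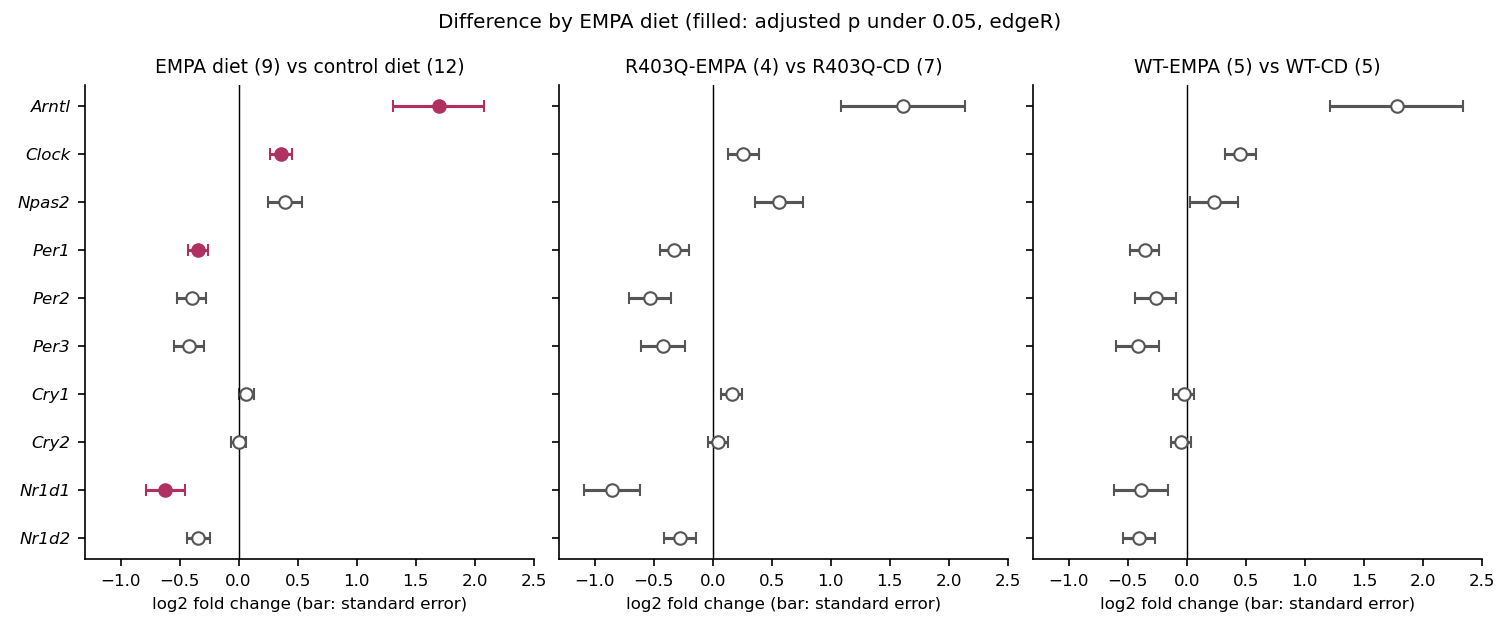
Log2 fold change of each clock gene with EMPA (points, with standard errors as bars) over both genotypes and within each genotype, with filled points for an adjusted p under 0.05 in edgeR. Arntl stood at 1.70, 1.61 and 1.78 in the 3 panels, and Cry1 and Cry2 stayed near 0.

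Within each genotype no clock gene passed the test. Both comparisons below use some of the mice of the comparison of diets. In R403Q-EMPA against R403Q-CD hearts edgeR called 0 of the 10, against 0.0116% of all genes, and DESeq2 called 1, Nr1d1 (adjusted p = 0.0284), against 0.936% of all genes, and limma on the deposited variance-stabilized values called 0. At an unadjusted p under 0.05 there were 6 of 10, against 13.4% of all genes. For Nr1d1 each of the 4 R403Q-EMPA mice lay below each of the 7 R403Q-CD mice (log2 difference −0.85, SE 0.24, adjusted p = 0.162, edgeR), and for Npas2 each of the 4 lay above (0.56, SE 0.20, adjusted p = 0.251, edgeR), where 1.62% of all genes did not overlap. Arntl differed by 1.61 (SE 0.52, adjusted p = 0.213, edgeR) and Per2 by −0.53 (SE 0.18, adjusted p = 0.222, edgeR) on the log2 scale.

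In WT-EMPA against WT-CD hearts edgeR, DESeq2 and limma each called 0 of the 10, against 0.0289% of all genes with edgeR, and 5 had an unadjusted p under 0.05 with edgeR, against 11.0% of all genes. Arntl differed by 1.78 (SE 0.56, adjusted p = 0.271) and Clock by 0.45 (SE 0.13, adjusted p = 0.238) on the log2 scale (edgeR). Nr1d1 differed by −0.39 (SE 0.23), Npas2 by 0.23 (SE 0.21) and Cry1 by −0.03 (SE 0.09), against −0.85, 0.56 and 0.16 in R403Q hearts. No member separated the groups of 5, as 3.45% of all genes did. The difference between the genotypes in the effect of EMPA, tested as an interaction, passed for 0 of the 10 genes and 0 of all genes in edgeR, DESeq2 and limma. Unadjusted, 0 of the 10 genes had a p under 0.05 with edgeR, against 3.28% of all genes (567 of 17309). The widest interaction was that of Nr1d1, at −0.46 (SE 0.32, unadjusted p = 0.167, edgeR), and that of Arntl was −0.17 with an SE of 0.77.

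The mutation was compared on each diet. In R403Q-CD against WT-CD hearts, which came from the same 4 cages, edgeR called 0 of the 10 genes, against 1.44% of all genes, and DESeq2 and limma called 0 as well. Only the cryptochromes, Cry1 and Cry2, had an unadjusted p under 0.05 (edgeR). These 2 of the 10 are about the share of all genes, which was 20.9%. No member separated the 2 groups, as 2.12% of all genes did. Cry2 was 67.6 ± 1.45 CPM in WT-CD hearts and 57.8 ± 6.28 CPM in R403Q-CD hearts (SD, n = 5 and 7; log2 difference −0.23, SE 0.08, adjusted p = 0.124, edgeR). The WT-CD mice lay between 65.3 and 69.2 CPM, and 6 of the 7 R403Q-CD mice lay below them, with the other at 68.5 CPM. Without that mouse, R403Q-CD mouse 3, Cry2 passed (log2 fold change −0.27, adjusted p = 0.0421, edgeR), while the calls over all genes went from 250 to 1045. In the other 20 fits that left out a mouse Cry2 did not pass, with an adjusted p of up to 0.224 (edgeR). Cry1 was 18.6 ± 1.31 CPM in WT-CD and 16.2 ± 2.21 CPM in R403Q-CD hearts (SD, n = 5 and 7; log2 difference −0.20, SE 0.08, adjusted p = 0.178, edgeR). R403Q-CD hearts also had higher sums of the 4 atrial markers, a sum carried mostly by Nppa (933.6 to 11600 against 246.1 to 723.6 CPM), and included lower sums of ventricular markers (59730 to 96700 against 95420 to 104700 CPM). Macrophage markers summed to 296.6 to 524.5 CPM against 211.1 to 282.9 CPM, with 2 of 5 higher in edgeR. The 6 fibroblast markers had a median log2 difference of 0.93 and sums of 1575 to 5342 against 1171 to 1896 CPM. The part of these markers in the cryptochrome values was not tested. In R403Q-EMPA against WT-EMPA hearts edgeR, DESeq2 and limma each called 0 of 10, against 0.0578% of all genes with edgeR, and Nr1d1 alone had an unadjusted p under 0.05, against 14.7%. Its 4 values in R403Q-EMPA mice lay below the 5 in WT-EMPA mice (log2 difference −0.57, SE 0.25, adjusted p = 0.285, edgeR), where 6.77% of all genes did not overlap. In the same groups fibroblast markers summed to 1725 to 2212 against 1055 to 1654 CPM, and macrophage markers to 339.4 to 404.1 against 187.7 to 322.0 CPM. Sums of the other marker lists overlapped, and the part of these markers in the Nr1d1 values was not tested.

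Arntl levels differed among cages on the same diet, although not past the adjusted threshold. In cage 68695 the 3 mice had 10.05 to 17.1 CPM and in cage 68692 the 3 mice had 1.99 to 4.32 CPM, although both cages ate the EMPA diet and both held WT and R403Q mice. Cage 68691, with 3 WT-EMPA mice, held 2 at 11.9 and 13.5 CPM and 1 at 2.49 CPM. On the control diet the mean was 5.49 ± 1.87 CPM in cage 68657 (SD, n = 2), 2.03 ± 0.503 in cage 68660 (SD, n = 3), 3.06 ± 0.981 in cage 68664 (SD, n = 3) and 1.76 ± 0.925 CPM in cage 68666 (SD, n = 4). The fitted correlation of mice of a cage was 0.60 for Arntl and 0.53 for Nr1d1, where the median over all genes was 0.103. The fit with cage as a random effect used the shared 0.103 for every gene. This was lower than the fitted values of Arntl, Nr1d1 and Clock (0.33) and higher than that of Per1 (−0.02).

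Nr1d1 followed the cages in the opposite sense on the control diet. It averaged 58.6 ± 11.4 CPM in cage 68660 (SD, n = 3) and 48.7 ± 9.86 CPM in cage 68666 (SD, n = 4), the cages with least Arntl. In cages 68657 and 68664 it averaged 31.3 ± 6.81 (SD, n = 2) and 31.8 ± 5.22 CPM (SD, n = 3). The EMPA cages did not follow this order: Nr1d1 averaged 37.0 ± 10.9 CPM in cage 68691, 27.4 ± 5.52 in cage 68692 and 25.7 ± 5.11 CPM in cage 68695 (SD, n = 3 each). When all differences among cages of the same diet were tested together, edgeR called 0 of the 10 members and 0 of all 17309 genes. Unadjusted, 4 of the 10 members (Arntl, Nr1d1, Npas2 and Clock) had a p under 0.05 with edgeR, against 12.5% of all genes, and DESeq2 called Arntl and Nr1d1 among 447 genes (2.88%), while limma called 0 genes. Without WT-EMPA mouse 2, the low mouse of cage 68691, Arntl passed with edgeR (adjusted p = 0.0219), in 1 of the 21 fits that left out a mouse. That mouse is the one whose low Arntl set it apart from its cage.

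With the cage as the unit of comparison, 3 EMPA cages stood against 4 CD cages, a design in which the smallest two-sided exact permutation p is 0.0571, so no gene could pass 0.05 in this test. Per1, Per2 and Nr1d2 reached this smallest p, each with all 3 EMPA cages below all 4 CD cages, as 5.24% of all genes had (11.4% in either direction; differences of mean log2 CPM of −0.32, −0.35 and −0.33). Arntl differed by 1.30 on the log2 scale between EMPA and CD cages (exact permutation p = 0.114). Cage 68692, on EMPA, had a mean log2 CPM of Arntl of 1.65, below the 2.43 of cage 68657 on CD.

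**Figure D3:**
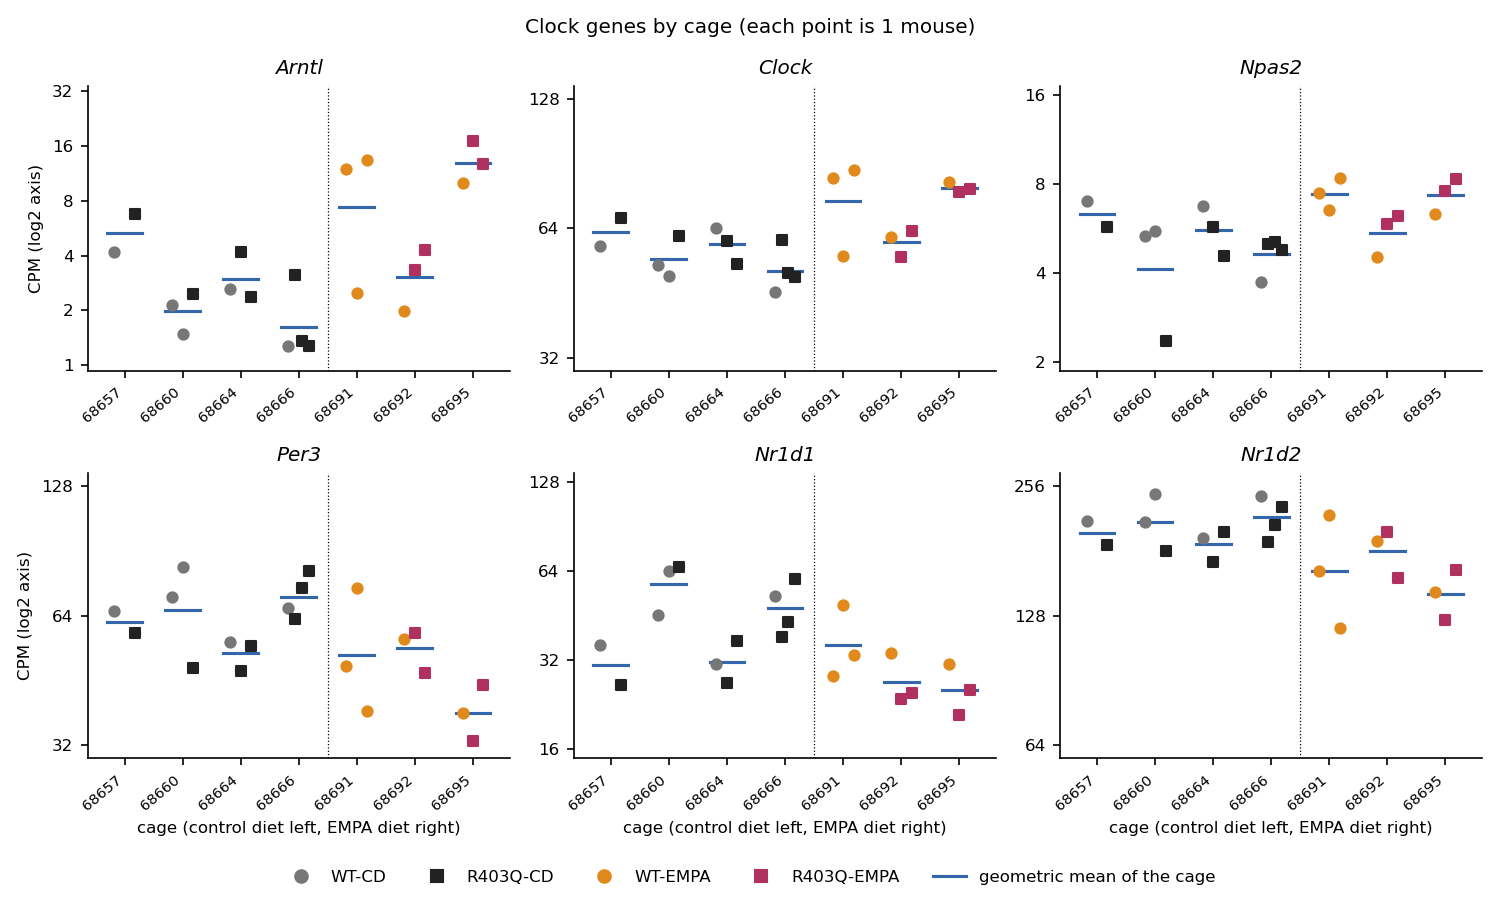
Levels of 6 clock genes by cage (CPM, log2 axes), each point a mouse and each line the geometric mean of its cage, with CD cages to the left of the dotted line and EMPA cages to the right. For Arntl the 3 mice of cage 68695 lie at 10.05 to 17.1 CPM and those of cage 68692 at 1.99 to 4.32 CPM.

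The next question was how the 10 genes varied together from mouse to mouse. Deviations of log2 CPM from the group means were correlated for all 45 pairs over the 21 mice, and permutation p-values were adjusted over the 45. Mice of a cage are not independent, and the permutations within groups took no account of this. All 3 pairs of activators had a positive Pearson's r (median 0.57), as did all 10 pairs of Per and Nr1d genes (median 0.54), whereas all 15 pairs of an activator with a Per or Nr1d gene had a negative r (median −0.59). The sign of the weakest of these did not hold throughout: as deviations from cage and genotype means the r of Npas2 was 0.046 with Per1, 0.18 with Per2 and 0.25 with Per3, and over CD mice it was 0.035 with Per2 and 0.16 with Per3. In all, 16 of 45 pairs passed, namely 2 of the 3 pairs of activators, 5 of the 10 pairs of Per and Nr1d genes and 9 of the 15 pairs between these sets, and none with Cry1 or Cry2. The median of the pairs of activators was 0.25 as deviations from cage and genotype means.

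The closest positive pair was Arntl with Clock, with r = 0.93 and Spearman's rho = 0.91 (permutation p = 1e-05 for each, the smallest that 100000 permutations can give, adjusted p = 0.00045). It stayed at 0.92 without the 2 mice farthest from the median of Arntl, and was 0.86 over the 12 CD mice, 0.96 over the 9 EMPA mice and 0.90 as deviations from cage and genotype means. Of the 17308 other tested genes, Clock had the highest correlation with Arntl. Other members ranked lower: Npas2 was 540 and Cry1 2713 from the highest. Counted from the lowest, Nr1d2 was 13, Per3 31, Per2 58 and Per1 1924, with Nr1d1 between Per2 and Per1. Many genes outside the loop were thus closer to Arntl than Npas2 was. Pairs of genes outside the loop were not tested, so the number of passing pairs has no background. Per3 with Nr1d2 was the next closest positive pair (r = 0.91, rho = 0.88, adjusted permutation p = 0.00045 and 0.00113, and r = 0.89 without the 2 farthest mice). The strongest negative pair was Clock with Nr1d2 (r = −0.85, rho = −0.81, adjusted permutation p = 0.00045 and 0.00315), at −0.86 without the 2 farthest mice, −0.84 over CD mice and −0.86 over EMPA mice. Arntl with Nr1d2 had r = −0.80 and Arntl with Per3 r = −0.75 (rho = −0.78 and −0.75, adjusted permutation p = 0.00281 and 0.00597).

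Per1 and Npas2 were looser members of the 2 sets. Per1 passed with Per2 alone (r = 0.75, rho = 0.66, adjusted permutation p = 0.00604 and 0.0117, r = 0.66 without the 2 farthest mice), and its r with Arntl was −0.38. Npas2 had r = −0.59 with Nr1d1 (rho = −0.58, adjusted permutation p = 0.0398 and 0.0282), which was −0.40 without its 2 farthest mice, R403Q-CD mouse 2 and WT-CD mouse 5, and −0.12 over EMPA mice. Per1 with Cry2 had an r of −0.15 over the 12 CD mice and of 0.93 over the 9 EMPA mice, a difference that was not tested. Tested separately in CD mice and in EMPA mice, 3 and 0 of the 45 pairs passed, while the median r of activators with Per and Nr1d genes was −0.62 and −0.59.

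**Figure D4:**
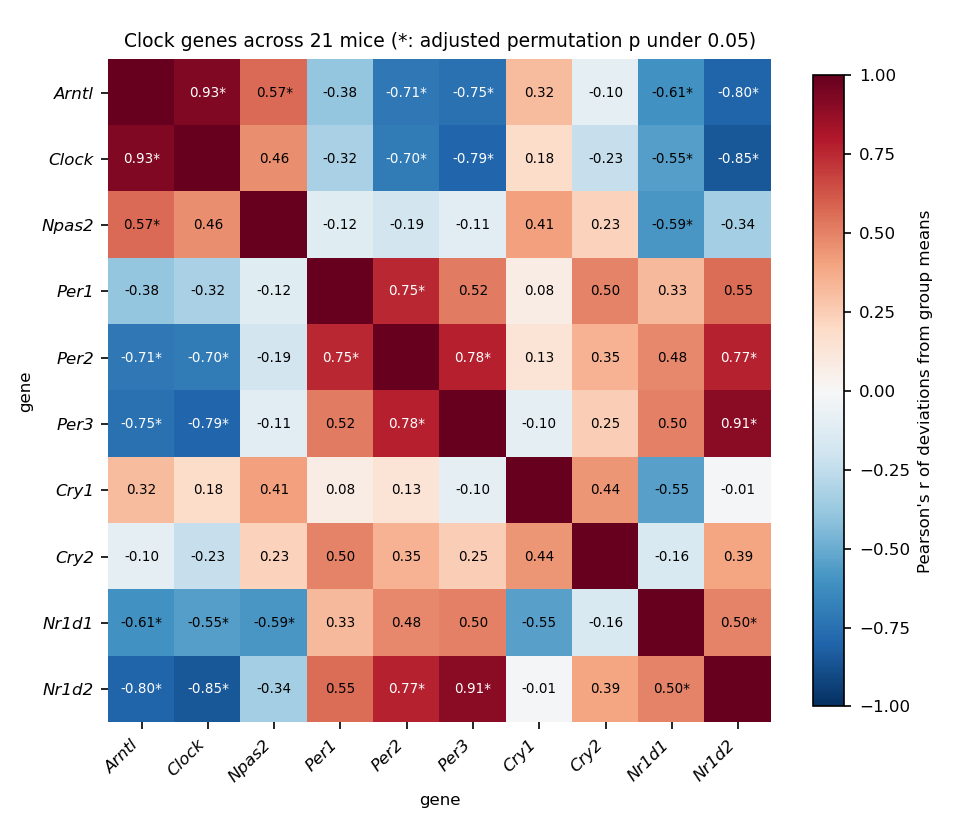
Pearson's r of the deviations from group means for each pair of the 10 clock genes over 21 mice, from −1 (blue) to 1 (red), with asterisks for an adjusted permutation p under 0.05. The 3 activators and the 5 Per and Nr1d genes form blocks of positive r with negative r between the blocks, and Cry1 and Cry2 have no asterisk.

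The gene outside the loop whose pattern ran most against Arntl was Dbp, which encodes a D-box binding activator that the loop drives. Its r with Arntl was −0.96 over the 21 mice (deviations from group means) and −0.94 within cages. Dbp ran from 55.2 to 130.3 CPM on CD and from 23.0 to 76.0 CPM on EMPA, and the 5 mice with over 10 CPM of Arntl were the 5 with the least Dbp, at 23.0 to 36.2 CPM. Next came Coq10b (−0.94), Ciart (−0.92), which encodes a repressor of the activator pair, Paqr7 (−0.90) and Tcap (−0.87), which encodes the sarcomere protein telethonin. High with Arntl among genes outside the loop were Zfp346 (0.87), Slc41a3 (0.87), Sphk2 (0.86) and Adam19 (0.85).

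Outside the loop, Per3 was most like Ciart (0.83), Tcap (0.82), Rbm12b1, 2700081O15Rik and Gm42929 (0.80 each). Gm42929 did not exceed 0.62 CPM in any mouse. The genes outside the loop lowest with Per3 were Colq (−0.83), Zbtb7b (−0.78), Cdkn1a (−0.75), Fbxo40 and Rb1 (−0.75 each). These are Pearson correlations of deviations from group means over 21 mice, chosen as the extremes of all tested genes other than the 10 members and given as a description. Ciart and Tcap were thus at the negative extreme for Arntl and at the positive extreme for Per3.

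**Figure D5:**
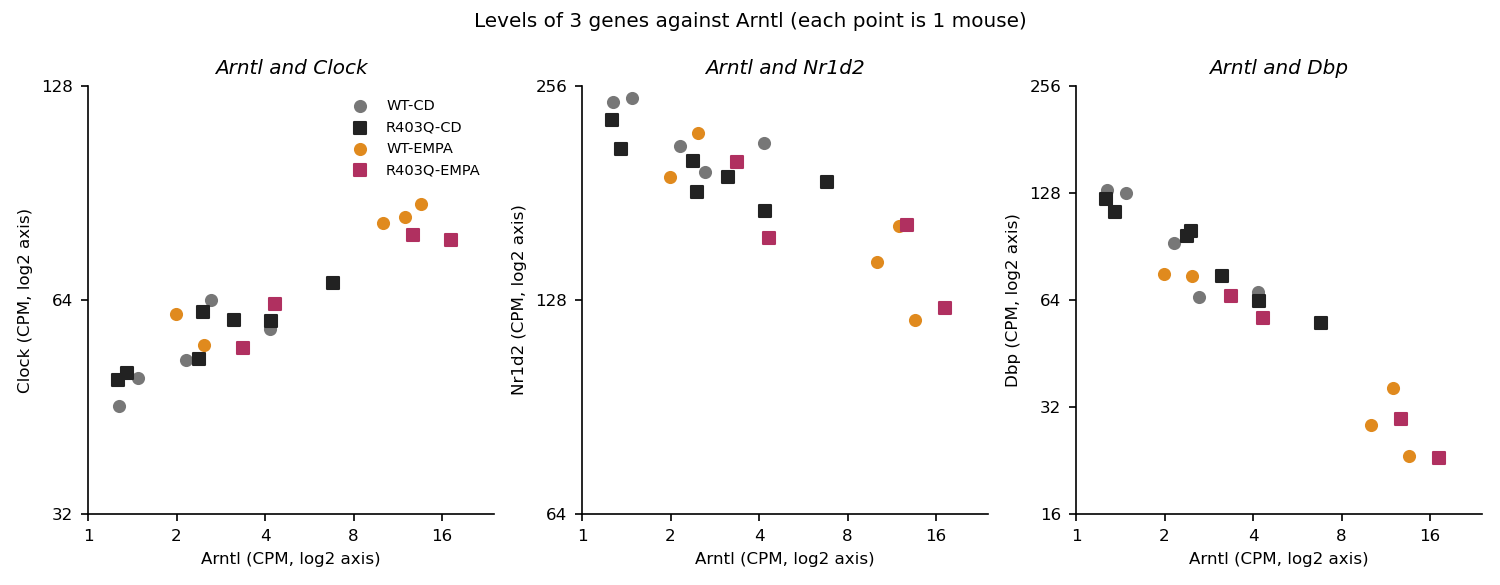
Clock, Nr1d2 and Dbp against Arntl (CPM, log2 axes), each point a mouse. Clock rises with Arntl and Nr1d2 and Dbp decline, and the 5 EMPA mice at the right, with over 10 CPM of Arntl, have 23.0 to 36.2 CPM of Dbp.

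Around the loop, the list of 13 accessory clock genes held 3 that passed in the comparison of diets, all lower on EMPA with edgeR: Ciart (log2 fold change −1.43, SE 0.25, adjusted p = 0.00698), Dbp (−1.02, SE 0.24, adjusted p = 0.0289) and Hlf (−0.46, SE 0.12, adjusted p = 0.0422), the last another D-box binding activator. Over all genes 0.936% were called lower and 1.98% higher. With cage as a random effect Ciart (adjusted p = 0.0128) and Dbp (0.0492) passed and Hlf (0.0912) did not (limma). The median of the 13 was −0.09, where that of all genes was −0.01. Ciart ran from 6.03 to 16.3 CPM on CD and from 1.96 to 8.48 CPM on EMPA. Of 17 kinases, ligases and cofactors that act on clock proteins, Gsk3b, a kinase of several clock proteins, rose (log2 fold change 0.16, SE 0.04, adjusted p = 0.0424, edgeR), a call lost with cage as a random effect (adjusted p = 0.118, limma). The median of the 17 was 0.04.

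Genes known to respond to glucocorticoids, hormones with a daily rhythm, were split. Of 12 tested, 2 rose on EMPA (1.98% of all genes did), namely Angptl4 (log2 fold change 1.57, SE 0.26, adjusted p = 0.0053, edgeR), an inhibitor of lipoprotein lipase, and Pdk4 (1.15, SE 0.26, adjusted p = 0.0253, edgeR), a kinase that restrains pyruvate dehydrogenase. Both are also known targets of fatty acid sensing receptors. Another 2 fell (0.936% of all genes did), Tsc22d3 (−0.43, SE 0.09, adjusted p = 0.012, edgeR), which encodes the glucocorticoid-induced leucine zipper protein, and the metallothionein gene Mt1 (−0.33, SE 0.09, adjusted p = 0.0388, edgeR). With cage as a random effect Angptl4 (adjusted p = 0.0179) and Tsc22d3 (0.0375) passed, and Pdk4 (0.055) and Mt1 (0.0954) did not (limma). Among cages of the same diet, edgeR called 0 of the 12 glucocorticoid-responsive and 0 of the 13 accessory clock genes, and limma 0 of each. DESeq2 called 1 and 3, against 2.88% of all genes. At an unadjusted p under 0.05 there were 3 of 12, with Pdk4 and Angptl4 among them, and 7 of 13, with Dbp among them, against 12.5% of all genes (edgeR). The median of the 12 was −0.09. Of 12 immediate-early genes, which respond within minutes to many stimuli, edgeR and limma called 0 and DESeq2 called 1, against 5.88% of all genes with DESeq2. Of the 12, 1 had an unadjusted p under 0.05 with edgeR, against 20.1% of all genes, and the median log2 difference was −0.35.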

How the data were processed

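Per the labels and the study's methods, polyadenylated RNA of frozen left ventricles was sequenced from both fragment ends. The authors ran STAR 2.6.0c against mouse build mm10 and FastQC 0.11.7, and obtained gene counts from properly paired, uniquely placed fragments with featureCounts (Subread 1.6.2, Ensembl annotation, same strand). The deposited counts are raw. The deposited log2 values are DESeq2 1.32.0 variance-stabilized values made from these counts, and served only as an alternative. Symbols and positions came from the GENCODE M21 annotation of GRCm38, and promoter sequences from RefSeq.

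The test used edgeR 4.0.16 under R 4.3.3, with filterByExpr at a minimum count of 10, TMM scaling, and the quasi-likelihood F test over all 21 mice in 4 groups, with Benjamini-Hochberg adjustment over all 17309 genes and a threshold of 0.05. CPM are counts after TMM, scaled to a total of 1000000, and log2 CPM had a prior count of 2. Differences among cages of the same diet were tested in a model with cage and with genotype within each diet. Pairs of genes were tested with 100000 permutations within groups. Cage means were compared by exact permutation. The labels give cages and no replicate numbers, so mice were numbered in deposit order, and p-values measure the spread between mice. The tests were tried on simulated counts before use.

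The genes described, the lists and the tests were chosen with earlier results of these data known. Named genes were the 10 members, list genes with an adjusted p under 0.05 in any comparison (at most 4 per list and comparison), the 5 genes highest and the 5 lowest in correlation with Arntl and with Per3, and an overlapping gene. 1 gene that met this rule is not reported here. The alternatives were DESeq2 1.42.0, limma 3.58.1 on the deposited log2 values, no filter, library size alone, cage as a block or random effect, the 3 groups of the study's own comparison, the cage as unit, and leaving out each mouse in turn.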

Additional observations from a re-analysis of the deposited data

Results flagged for a closer look

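A test for a sample far from the rest of its group, at a level that chance reaches in about 1 in 20 groups, was made for the 10 clock genes in each of the 4 groups. It marked 3 of the 40 sets of values. Npas2 was 2.36 CPM in R403Q-CD mouse 2, the lowest of its group, where the other 6 mice had over 4 CPM. Per1 was 61.0 CPM in WT-EMPA mouse 3, the lowest of the 5 mice, and 103.9 CPM in R403Q-EMPA mouse 4, the highest of the 4. These mice stood apart in opposite directions for Per1 within the EMPA diet, and no technical or biological account of them was tested.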

How the results depend on the processing

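With EMPA against control diet, the 4 calls (Arntl, Clock, Per1 and Nr1d1) kept their direction under DESeq2, limma, cage as a random effect, no filter, library size alone and the omission of each mouse. DESeq2 called 7 members and cage as a random effect 0. Without a filter on low counts all 4 were called, whereas limma and library size alone lost Clock (adjusted p = 0.0515 and 0.0513) and Nr1d1 (0.056 and 0.0507) and called Nr1d2 (0.0422 and 0.0458). With the cage as the unit the exact permutation test could make no call. In R403Q-EMPA against R403Q-CD DESeq2 called 1. For cages within a diet DESeq2 called 2 members, and 6 were called without a filter, a fit whose prior degrees of freedom were infinite where those of the filtered fit were 4.71. Of the 45 pairs 3 passed over CD mice alone and 0 over EMPA mice alone, against 16 over all mice. Leaving out 1 mouse gave 0 to 7 called members for diet, 0 to 1 for R403Q-CD against WT-CD and 0 to 1 for cages within a diet. Log2 differences near 0 changed sign, none of them called. Cry2 with diet was −0.00012 with DESeq2, −0.0043 with cage as a random effect, −0.0036 with limma, −0.0034 without a filter, −0.015 with library size alone and −0.025 to 0.036 with a mouse left out. Per2 in R403Q-CD against WT-CD was −0.00037, −0.034, −0.019, −0.0081 and, with cage as a block, −0.076 (DESeq2, random effect, limma, no filter, block). In R403Q-EMPA against WT-EMPA Cry1 was 0.016 with cage as a block, and Cry1 and Per1 were 0.040 and 0.016 with library size alone. The interaction of Arntl was 0.072 (random effect), 0.24 (block) and 0.0091 (limma), and that of Per3 was 0.046, 0.15, 0.022 and, without a filter, 0.00084. With a mouse left out, the ranges were −0.077 to 0.059 (Per2) and −0.25 to 0.045 (Nr1d1) in R403Q-CD against WT-CD, and −0.072 to 0.0094 (Cry1) and −0.097 to 0.025 (Cry2) in WT-EMPA against WT-CD. In R403Q-EMPA against WT-EMPA they were −0.15 to 0.025 (Per1), −0.049 to 0.033 (Cry1), −0.31 to 0.0018 (Per3), −0.18 to 0.060 (Nr1d2), −0.25 to 0.51 (Arntl) and −0.033 to 0.17 (Npas2). For the interaction they were −0.15 to 0.17 (Per3), −0.64 to 0.16 (Arntl) and −0.076 to 0.096 (Per1). Over all genes, calls in R403Q-CD against WT-CD, 250 in edgeR, were 984 with DESeq2, 1128 with cage as a block, 475 with cage as a random effect, 98 without the WT-EMPA group and 31 to 1045 with a mouse left out. Those for diet, 504 in edgeR, were 983 with DESeq2, 113 with the random effect, 314 without a filter and 122 to 929 with a mouse left out. DESeq2 called 145, 95, 304 and 447 genes for R403Q-EMPA against R403Q-CD, WT-EMPA against WT-CD, R403Q-EMPA against WT-EMPA and cages within a diet, where edgeR called 2, 5, 10 and 0 (ranges of 0 to 12, 0 to 12, 1 to 201 and 0 to 2 with a mouse left out), and no filter gave 2371 genes for cages within a diet. The remaining calls over all genes that moved by over 1.5 times were 0 without WT-EMPA and 5 with library size alone for R403Q-EMPA against R403Q-CD, 1 with the random effect and 0 with library size alone for WT-EMPA against WT-CD, and 0 with the block for R403Q-EMPA against WT-EMPA. Pairing by number was not tried, since the labels give cages and no replicate numbers. The comparison within cages is the cage block above, which called 0 members in edgeR. In that fit 2 members had an unadjusted p under 0.05 in R403Q-CD against WT-CD, beside 4551 of all 17309 genes. There were 0 members beside 1733 genes in R403Q-EMPA against WT-EMPA, and 1 member beside 826 genes for the interaction. The causes of these shifts were not tested. Counting error is widest for Arntl, with as few as 39 counts in a mouse, and groups of 4 to 7 mice limit every test.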
